A study of Mus musculus with 2 samples.

Results

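Type 2 conventional dendritic cells (cDC2) that carry Cd209a were 63 of the 24093 cell barcodes kept from 2 droplet single-cell libraries of fibrotic mouse liver, 21 of 11370 in the wild-type library and 42 of 12723 in the knockout library. They were chosen on raw UMIs, the unique molecular identifiers that count single RNA molecules. A member had at least 2 UMIs of Cd209a, at least 1 of Flt3 and at least 5 of H2-Aa. It had none of Xcr1, Clec9a, Siglech, Cd3d, Cd3e or Cd3g, at most 1 of Fscn1, at most 2 of Cd79a, Cd79b and Ms4a1 together and at most 10 of C1qa, C1qb and C1qc together. Barcodes with fewer than 200 genes or more than 20% mitochondrial UMIs were left out first. Because the rule reads measured values, the levels of these genes describe the choice and are no result.

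The livers came from Mfap2+/+ mice (genotype WT) and Mfap2-/- mice (genotype KO), and both groups had received carbon tetrachloride (CCl4), a hepatotoxin used to produce liver fibrosis, into the peritoneal cavity for 8 weeks. Mfap2 encodes a glycoprotein of extracellular microfibrils. Non-parenchymal liver cells, a preparation meant to leave out hepatocytes, gave 1 library per genotype, and no library without CCl4 was analysed here. Strain, sex, age and the number of animals behind each library are not given in the sources used here, so genotype, animal and library preparation cannot be told apart and no test between genotypes was possible. The intervals below are 95% counting intervals, which cover counting error only.

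Conventional dendritic cells arise from bone marrow precursors that depend on the receptor Flt3, take up antigen in tissues and present it to T cells. The type 2 lineage depends on transcription factors such as IRF4 and KLF4, carries lectins and SIRPα on its surface and presents antigen mainly on MHC class II to CD4 T cells. The type 1 lineage depends on IRF8 and BATF3 and is specialised in presenting antigen to CD8 T cells. Cd209a encodes a C-type lectin related to human DC-SIGN and is also known from dendritic cells that derive from monocytes.

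The knockout library was the deeper one, with a median of 6587 UMIs per kept barcode against 4932.5. The gap was similar within cDC2, where the median cell had 14071 UMIs (4791 to 21362) in the knockout and 9450 UMIs (2288 to 15579) in the wild type. The cDC2 sums held 579667 and 192362 UMIs. Median mitochondrial shares were 1.56% and 1.58%. As a check of the labels, Mfap2 was counted over all kept barcodes, with 257 UMIs in wild type against 4 in knockout. No cDC2 held an Mfap2 UMI in either library. Xist was at 0 in both cDC2 sums, and the Y-linked Ddx3y stood at 172 and 169 CPM and Uty at 57.2 and 124 CPM in wild type and knockout. The libraries shared 40 barcode sequences, none of them a member.

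The thresholds on Cd209a and Flt3 lay close to many members. A Cd209a count of exactly 2 occurred in 6 wild-type and 8 knockout members, and 7 and 26 further barcodes met every other criterion with 1 Cd209a UMI. Flt3 stood at exactly 1 UMI in 13 and 23 members, and 15 and 26 barcodes failed only because they had no Flt3 UMI. The limit on the complement genes C1qa, C1qb and C1qc acted on the deeper library alone. It removed 13 knockout barcodes, with a median of 22717 UMIs, and 0 wild-type barcodes. The criterion of no Xcr1 or Clec9a UMI likewise removed 8 knockout barcodes, 7 of them with 1 such UMI, and 0 wild-type barcodes. Members had a median of 6.5 C1q UMIs in the knockout and 5 in the wild type. On the scale of counts per 1000000 UMIs of the summed cells (CPM), C1q stood at 473 and 468 CPM in knockout and wild-type cDC2. In B cells, which do not make it, it stood at 530 and 580 CPM. The B cell gate carried the same limit of 10 C1q UMIs, so these levels are shaped by the limit and are no result. The part of free RNA in these counts was not tested.

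The members carried further genes of the type 2 lineage that the rule did not read. They were set beside 3 other gates of the same libraries: type 1 conventional dendritic cells (cDC1, Xcr1 or Clec9a; 67 wild-type and 58 knockout cells), migratory dendritic cells (Fscn1 and Ccr7; 15 and 19) and classical monocytes (Ly6c2 and Ccr2 without Flt3; 228 and 144). Clec10a, which encodes a lectin for galactose-type sugars, stood at 218 CPM (157 to 295) in wild-type and 142 CPM in knockout cDC2. Its level in the other 3 gates was between 0 and 8.38 CPM. Mgl2, its close paralog, stood at 192 and 112 CPM and reached at most 0.645 CPM in the other 3 gates. Reads of these paralogs may be shared between them. Itgax, the integrin chain CD11c, stood at 166 CPM in the wild type and 126 CPM in the knockout, above the 8.03 to 78.3 CPM of the other gates.

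Other markers of the lineage separated cDC2 from only some of these gates. Sirpa, the receptor SIRPα, stood at 250 and 147 CPM, above cDC1 (45.7 and 49.1 CPM) but not above monocytes (261 and 266 CPM). Zbtb46, a transcription factor of conventional dendritic cells, stood at 161 and 147 CPM, above monocytes at 14.3 and 14.2 CPM and below migratory dendritic cells at 358 and 597 CPM. Irf4 was low in cDC2, at 67.6 CPM (13 UMIs) and 62.1 CPM (36 UMIs), and stood at 5.48 and 9.10 CPM in cDC1. Irf8, the factor of the type 1 lineage, stood at 46.8 and 44.9 CPM against 1324 and 1257 CPM in cDC1. Lyz2, the lysozyme of monocytes and macrophages, stood at 411 and 471 CPM against 6116 and 6710 CPM in monocytes. Thus Clec10a, Mgl2 and Itgax each stood above cDC1 and monocytes in the sums of both libraries, whereas Sirpa did not stand above monocytes.

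**Figure D1:**
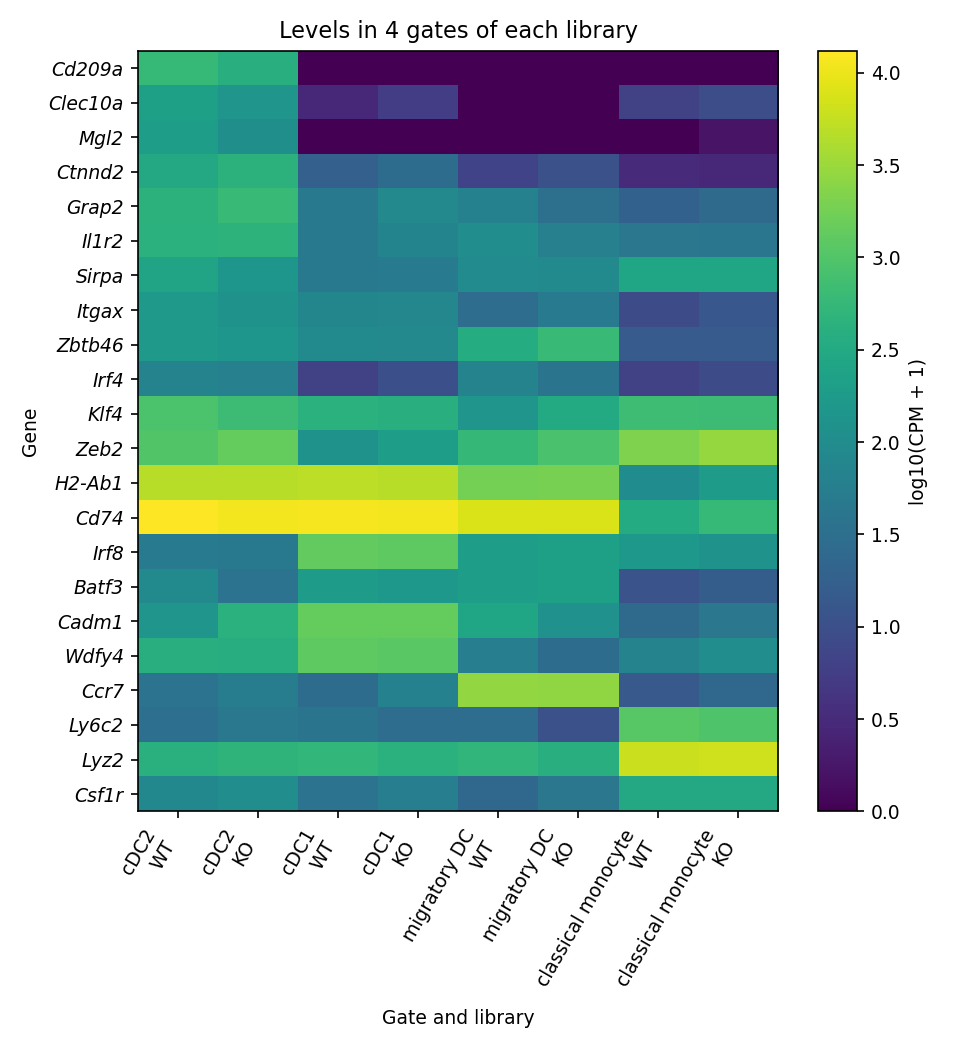
Level of 22 genes in the summed cells of 4 gates in the wild-type (WT) and knockout (KO) library, as log10(CPM + 1). Clec10a and Mgl2 are high only in the 2 cDC2 columns among those drawn, Irf8 and Cadm1 are highest in cDC1, Ccr7 in migratory dendritic cells and Ly6c2 and Lyz2 in classical monocytes; Cd209a, Ccr7 and Ly6c2 helped to define the gates.

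The lectins did not mark every member. With cells thinned to 3000 UMIs, 1 wild-type member was too shallow to enter. Clec10a was then detected in 8 of 20 wild-type members (interval 19.1% to 64.0%) and 13 of 42 knockout members (31.0%, 17.6 to 47.1). Without thinning the shares were 52.4% and 57.1%. The background in B cells was 0.346% and 0.620% after thinning. At full depth, 4 wild-type and 12 knockout members held both lectins, and 6 and 15 held neither. Detection of these genes therefore split the members in both libraries, at counts too low to say that a cell lacks the RNA.

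The 15 genes with the highest level in cDC2 relative to the other 3 gates gave a further portrait, chosen by their values and so a description. Clec10a and Mgl2 led. Among the next were Ctnnd2, a catenin of cell junctions, at 302 and 442 CPM in cDC2 and at most 27.3 CPM elsewhere, and Grap2, an adaptor of immune receptor signalling, at 442 and 609 CPM against at most 85.5 CPM. Il1r2, the decoy receptor for interleukin 1, stood at 421 and 464 CPM against at most 102 CPM. Tnf stood at 515 and 423 CPM against at most 165 CPM, and Ccl4, a chemokine that draws lymphocytes and monocytes, at 5386 and 3566 CPM against at most 1483 CPM. Cd72, Sec24a, Chn2, Rtn1, Nav2, Slc15a2, Creb5 and Gm34084 completed the set. With barcodes thinned before gating, 10 of the 15 remained above all 3 gates in both libraries. On its own strand Nav2 overlaps Gm2788 and Gm32849. Nav2, Ctnnd2, Cd72, Chn2 and Il1r2 share their positions with antisense genes. Whether reads were assigned by strand is not given in the sources used here, so such counts are uncertain here and below.

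Members of the gate made up 0.185% of wild-type barcodes (0.114 to 0.282) and 0.330% of knockout barcodes (0.238 to 0.446), a log2 ratio of knockout over wild type of 0.84 (0.05 to 1.67). Among the 3 dendritic cell gates, cDC2 were 21 of 103 cells in the wild type (20.4%, 13.1 to 29.5) and 42 of 119 in the knockout (35.3%, 26.8 to 44.6). The same log2 ratio was -0.37 (-0.90 to 0.16) for cDC1, 0.18 (-0.88 to 1.26) for migratory dendritic cells and -0.83 (-1.14 to -0.52) for classical monocytes. Every count in the rule depends on the depth of a cell, and the knockout library was deeper. With every barcode thinned to 3000 UMIs before gating, 3 of 7710 wild-type and 11 of 10118 knockout barcodes met the rule. With the C1q limit at 2 UMIs the direction reversed, at 5 wild-type cells and 1 knockout cell, and with no C1q limit, an alternative chosen after seeing the data, the counts were 21 and 55.

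Expression within cDC2 was compared on 2442 genes, those whose sum over both libraries reached 50 UMIs. A gene was called higher or lower when its level differed at least 2-fold. In the knockout, 172 genes were called higher (7.04%) and 47 lower (1.92%), and the median log2 ratio of all 2442 genes was 0.03. Every list below is read against these shares. The same rule called 3.43% of 4986 genes higher and 0.842% lower in cDC1. It called 8.27% and 4.13% of 1282 in migratory dendritic cells, and 2.48% and 1.75% of 6986 in monocytes. Neutrophil genes summed to 21170 and 728 CPM in wild-type and knockout migratory dendritic cells. They summed to 3649 and 914 CPM in cDC1 and to 6804 and 13000 CPM in monocytes. Their part in the ratios of these gates was not tested.

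Of 19 genes in the list of cDC identity, 8 had enough UMIs, and 3 of them, Cd209a, Flt3 and H2-Aa, were read by the rule and are left aside. The other 5 lay below 0 in the knockout, with a median log2 ratio of -0.64, and none was past 2-fold. Clec10a had a log2 ratio of -0.64 (-1.18 to -0.05), Mgl2 -0.79 (-1.38 to -0.16), Sirpa -0.78 (-1.29 to -0.23), Itgax -0.43 (-1.02 to 0.25) and Zbtb46 -0.17 (-0.75 to 0.51). Clec10a and Mgl2 were held by 11 and 8 of the 21 wild-type cells. Without the 5 cells that held most UMIs of each gene in each library their log2 ratios were 0.54 and 0.16. That step removes a larger part of 21 cells than of 42 and shifts ratios upward: 595 genes were then called higher, against 172. It therefore cannot tell whether few cells carried the lower values.

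Transcription factors of dendritic cells moved both ways, 5 of 13 above and 8 below 0, with none past 2-fold. Klf4, a factor of the type 2 lineage, stood at 905 CPM in the wild type and 659 CPM in the knockout (log2 ratio -0.46, -0.72 to -0.19). Zeb2, a repressor active in monocytes and type 2 cells, stood at 988 and 1375 CPM (0.47, 0.25 to 0.71), but 1 wild-type cell held 45.8% of the wild-type UMIs. Tcf4, the factor of plasmacytoid dendritic cells, stood at 203 and 371 CPM (0.84, 0.37 to 1.40). Cells with Siglech, the defining plasmacytoid marker, had been left out by the rule. Id2, an inhibitor of E proteins such as Tcf4, stood at 587 and 376 CPM (-0.65, -0.98 to -0.30). Klf2, which keeps immune cells quiescent and belongs to the immediate early list, was at 2558 and 1573 CPM (-0.70, -0.86 to -0.54). Its log2 ratio was -0.05 in cDC1, -0.03 in migratory dendritic cells and -0.14 in monocytes.

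The machinery of antigen presentation was close to level. Of 13 MHC class II genes with enough UMIs, 3 lay above and 10 below 0, none was past 2-fold, and the median log2 ratio was -0.23. H2-Ab1, a chain of the I-A molecule, stood at 4798 and 4704 CPM (-0.03, -0.14 to 0.08), and H2-Eb1, a chain of I-E, at 6675 and 6842 CPM (0.03, -0.06 to 0.13). Cd74, the invariant chain, stood at 13150 and 11330 CPM (-0.21, -0.28 to -0.15). The peptide-loading genes H2-DMb1 and H2-DMb2 had log2 ratios of -0.75 (-1.08 to -0.39) and -0.81 (-1.32 to -0.26), and H2-Oa, which restrains that loading, had -0.77 (-1.28 to -0.23). In the class I list, 1 of 7 genes was called lower and none higher. It was Tap1, the peptide transporter, at 166 CPM (32 UMIs) in the wild type and 75.9 CPM (44 UMIs) in the knockout. Tap1 overlaps Psmb9 on the opposite strand.

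Costimulatory and checkpoint genes were split. Of 8 with enough UMIs, 1 was called higher and 1 lower. Havcr2, the checkpoint receptor TIM-3, stood at 98.8 CPM in the wild type and 326 CPM in the knockout (log2 ratio 1.66, 1.04 to 2.49). No wild-type cell had more than 4 Havcr2 UMIs, and 15 of 42 knockout cells had at least 5. These counts are raw, and knockout cells were deeper. After thinning, 6 of 20 and 18 of 42 members held a UMI against 1.38% and 2.75% of B cells. In cDC1 the gene stood at 263 and 359 CPM. Cd274, the ligand PD-L1, stood at 234 and 84.5 CPM (-1.47, -2.08 to -0.85). The median wild-type cell had 1 Cd274 UMI and the median knockout cell 0, and the highest cells had 18 and 17, so the ranges overlapped fully. In the wild type 1 cell held 40% of the UMIs. After thinning, 5 of 20 (8.66% to 49.1%) and 8 of 42 members (8.60% to 34.1%) held a Cd274 UMI. The share was higher in B cells, at 35.6% and 37.9%. Log2 ratios lay above 0 in cDC1 (0.81, 0.32 to 1.33) and migratory dendritic cells (0.41, 0.10 to 0.73). In monocytes the ratio was 0.31 (-0.05 to 0.66), with an interval that includes 0. Over all other kept barcodes it was -0.007. The gene overlaps AC119228.1 on the opposite strand. Cd86, a ligand of CD28, stood at 1570 and 2253 CPM (0.52, 0.34 to 0.71), and Cd83, a marker of activated dendritic cells, at 2267 and 2731 CPM (0.27, 0.12 to 0.43).

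Among inflammatory mediators, Il1b, the cytokine interleukin 1 beta, stood at 5230 CPM in the wild type and 3367 CPM in the knockout (log2 ratio -0.64, -0.75 to -0.52). Per cell it ranged from 1 to 105 UMIs with a median of 53 in the wild type and from 3 to 126 with a median of 51 in the knockout. After thinning, 19 of 20 and 40 of 42 members held an Il1b UMI, beside 47.4% and 49.3% of B cells and 97.0% and 93.1% of cDC1. Il1b overlaps Il1bos on the opposite strand. The Il1b log2 ratio was -0.23 in cDC1, 0.12 in monocytes and 0.79 in migratory dendritic cells. Ccl4 had a log2 ratio of -0.60 (-0.70 to -0.49) in cDC2, which became 0.17 without the 5 richest cells of each library. All 4 cytokine genes with enough UMIs lay below 0, and so did 7 of 8 chemokine genes, but none was past 2-fold and the intervals of 1 and 2 of them lay below 0. Tnf had a log2 ratio of -0.29 (-0.63 to 0.07). Without the 5 richest cells of each gene the medians turned from -0.27 to 0.21 for the cytokines and from -0.19 to 0.33 for the chemokines. As stated above, that step takes a larger part of the wild-type cells and shifts ratios upward. These turns, like that of Ccl4, therefore cannot tell whether few cells carried the lower values. Gpr183, an oxysterol receptor that positions type 2 dendritic cells in lymphoid tissue, was the 1 called gene of the 4 in the trafficking list, at 400 CPM in the wild type and 195 CPM in the knockout (-1.04, -1.47 to -0.60). Thinned to equal depth, 11 of 20 wild-type and 10 of 42 knockout members held a Gpr183 UMI. B cells, which are known to express this gene, held it in 58.3% and 57.0%. It overlaps Ubac2 on the opposite strand.

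**Figure D2:**
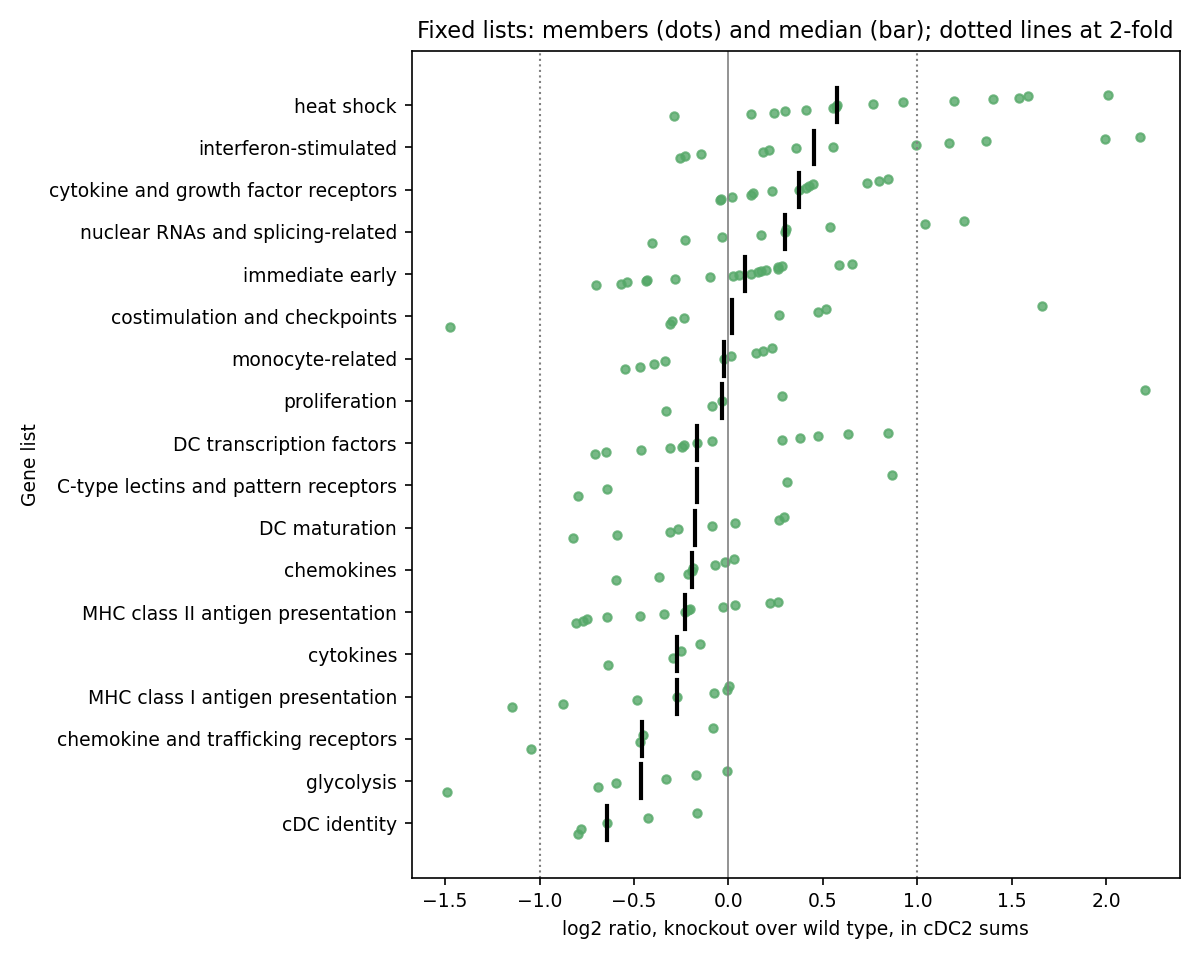
Log2 ratio of knockout over wild type in cDC2 sums for the genes of each fixed list with at least 50 UMIs (dots, without genes read by the rule) and their median (black bars). The heat shock list has the highest median, 0.58, with 5 of 15 genes beyond the dotted 2-fold line, and the 5 cDC identity genes that the rule did not read the lowest, -0.64, with none beyond it.

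Receptors for cytokines and growth factors lay mostly above 0, 11 of 13, with a median log2 ratio of 0.37 and none past 2-fold. Csf2rb, the shared beta chain of the GM-CSF receptor, stood at 83.2 and 152 CPM (0.80, 0.09 to 1.74), and Ifngr2, a chain of the interferon gamma receptor, at 93.6 and 162 CPM (0.73, 0.06 to 1.61). Glycolytic genes lay below 0 in 6 of 6, with a median of -0.46. Pgk1, an enzyme of that pathway, was called lower at 140 CPM (27 UMIs) and 50.03 CPM (29 UMIs). Of the other lists, the 4 lectins and pattern receptors had a median of -0.17, 8 maturation genes -0.18 and 9 monocyte-related genes -0.02, with no member past 2-fold. Nlrp3, the inflammasome sensor, was the highest of the receptors at 218 and 405 CPM (0.87, 0.41 to 1.40).

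Chaperone genes stood out among the lists. All 15 heat shock genes had enough UMIs, 14 lay above 0, and 5 (33.3%) were called higher beside 7.04% of all genes; none was called lower. The median log2 ratio was 0.58. Hspa5, which encodes the chaperone BiP of the endoplasmic reticulum, stood at 541 CPM in the wild type and 1582 CPM in the knockout (1.54, 1.26 to 1.86). Per cell it ranged from 0 to 13 UMIs with a median of 4 in the wild type and from 3 to 84 with a median of 16 in the knockout. The knockout cell with 84 also held 106 UMIs of endothelial genes, and the next highest cell had 72 Hspa5 UMIs. In raw UMIs 26 of 42 knockout cells exceeded the highest wild-type cell, but knockout cells were deeper. After thinning, 16 of 20 wild-type and 40 of 42 knockout members held a Hspa5 UMI, as did 66.3% and 82.5% of B cells.

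The other called chaperones act in the cytosol or in mitochondria. Hspd1, the mitochondrial chaperonin HSP60, stood at 114 and 480 CPM (log2 ratio 2.01, 1.44 to 2.77). Its partner Hspe1, which lies head to head with it and overlaps it on the opposite strand, stood at 317 and 545 CPM (0.76, 0.38 to 1.20). Dnajb1, a co-chaperone of HSP70, stood at 400 and 1216 CPM (1.59, 1.26 to 1.96), Hsph1, a nucleotide exchange factor for HSP70, at 317 and 849 CPM (1.40, 1.03 to 1.83) and Bag3, another HSP70 co-chaperone, at 98.8 and 236 CPM (1.20, 0.56 to 2.03). The inducible HSP70 genes themselves differed little. Hspa1a stood at 2786 and 3293 CPM (0.24, 0.10 to 0.38) and Hspa1b at 3821 and 4158 CPM (0.12, 0.00 to 0.24). These copies are nearly identical, so reads may be split between them. In monocytes the same genes had log2 ratios of 1.15 (1.08 to 1.23) and 1.23 (1.16 to 1.31), from wild-type levels of 1048 and 1034 CPM.

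The chaperone pattern was found in the other gates as well. The list's median log2 ratio was 0.74 in cDC1, 1.01 in migratory dendritic cells and 0.94 in monocytes. Hspa5 had a log2 ratio of 1.48 (1.35 to 1.61) in cDC1, 1.59 (0.94 to 2.38) in migratory dendritic cells and 1.02 (0.91 to 1.13) in monocytes. Over all kept barcodes other than cDC2 it went from 472 to 944 CPM. Gating after thinning, which left 3 wild-type and 11 knockout cells, gave a cDC2 median of -0.014 for the list. Immediate early genes, which respond to cell handling, had a median of 0.09 with none of 18 past 2-fold. Within them Atf3 stood at 3623 and 5715 CPM (0.66, 0.54 to 0.78) and Jun at 2854 and 4285 CPM (0.58, 0.45 to 0.72), while Junb stood at 3265 and 2206 CPM (-0.57, -0.70 to -0.43). Their part in the chaperone values was not tested.

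The 200 bases before the RefSeq start sites of Hspa5 and Hspd1, on mouse build GRCm38.p6, are shown because Hspd1 had the highest ratio among the called chaperones and Hspa5 was the called chaperone of the endoplasmic reticulum. Capitals mark letters that match a motif. The Hspa5 window, chr2:34771890-34772089 on the forward strand, holds 1 endoplasmic reticulum stress element (CCAAT, any 9 bases, CCACG), 65 to 47 bases before the start site. The Hspd1 window, chr1:55087933-55088132 on the reverse strand, holds 2 heat shock elements (GAA, TTC and GAA, each 2 bases apart), on opposite strands and overlapping each other.
Hspa5: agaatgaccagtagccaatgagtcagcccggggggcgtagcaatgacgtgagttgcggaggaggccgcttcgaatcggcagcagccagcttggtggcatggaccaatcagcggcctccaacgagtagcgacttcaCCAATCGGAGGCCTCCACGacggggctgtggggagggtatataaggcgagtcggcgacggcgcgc
Hspd1: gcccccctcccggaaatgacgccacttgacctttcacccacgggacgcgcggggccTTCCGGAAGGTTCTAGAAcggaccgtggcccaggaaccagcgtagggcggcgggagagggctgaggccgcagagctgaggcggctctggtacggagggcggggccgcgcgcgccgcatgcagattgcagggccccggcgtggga
Both strands were searched in 32851 promoter windows of that length. The stress element was found in 34 of them (0.103%) and in 1 of 12 heat shock genes with a window, and the heat shock element in 122 (0.371%) and in 2 of 12. A match describes the letters and is not evidence that a factor binds there.

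Interferon-stimulated genes formed the other list with several called members. Of 22 genes 12 had enough UMIs, 9 lay above 0, 4 (33.3%) were called higher beside 7.04% of all genes and none lower, and the median log2 ratio was 0.45. Ifit2, an RNA-binding protein of the antiviral response, stood at 104 CPM in the wild type and 492 CPM in the knockout (2.18, 1.59 to 2.97). Wild-type cells had 0 to 6 Ifit2 UMIs with a median of 0, and knockout cells 0 to 51 with a median of 1. The difference lay in a subset: 9 of 42 knockout cells had at least 10 Ifit2 UMIs, and no wild-type cell had. All 9 also had at least 30 UMIs of Ccl4, as had 21 of all 42 knockout members. After thinning, 2 of 20 wild-type and 16 of 42 knockout members held an Ifit2 UMI, beside 2.60% and 6.64% of B cells. Gated after thinning, the 3 wild-type and 11 knockout cells gave a log2 ratio of -0.55.

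Rsad2, the antiviral enzyme viperin, stood at 302 and 788 CPM (log2 ratio 1.37, 0.99 to 1.81). In the wild type 1 cell held 72.4% of its UMIs, and in the knockout 1 cell held 33.9%. Ifit3 stood at 15.6 CPM (3 UMIs) and 81.1 CPM (47 UMIs), a log2 ratio of 1.99 with a counting interval from 0.74 to 4.71, and Oasl2, an oligoadenylate synthetase-like protein, at 62.4 and 150 CPM (1.17, 0.39 to 2.27). Other members of the same response did not share the direction: Ifit1 stood at 390 and 355 CPM (-0.15, -0.52 to 0.27) and Isg15, a ubiquitin-like modifier, at 322 and 278 CPM (-0.23, -0.65 to 0.23). The Ifit genes are paralogs, so reads may be shared. None of the 11 interferon gamma GTPases had enough UMIs. The list's median was 0.59 in cDC1 (11 genes), 1.43 in migratory dendritic cells (5 genes) and 0.61 in monocytes (19 genes). Ifit1 had a log2 ratio of 1.67 in cDC1 and 1.35 in monocytes, unlike cDC2, a difference that was not tested.

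The same windows are shown for Rsad2 and Ifit3, which were among the 4 interferon-stimulated genes called higher. Those of Ifit2 and Oasl2, also called higher, are not shown, so these windows do not describe the called genes as a group. Matches to the interferon-stimulated response element (TTTC, any 2 bases, TTTC) are in capitals. The Rsad2 window is chr12:26456453-26456652 on the reverse strand, with 1 match 120 to 111 bases before the start site. The Ifit3 window is chr19:34583329-34583528 on the forward strand, with 2 matches, at 156 to 147 and at 122 to 113 bases.
Rsad2: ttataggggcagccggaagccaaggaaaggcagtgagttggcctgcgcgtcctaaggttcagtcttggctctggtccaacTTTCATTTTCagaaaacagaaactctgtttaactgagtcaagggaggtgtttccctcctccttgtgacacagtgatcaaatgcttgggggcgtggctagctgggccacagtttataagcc
Ifit3: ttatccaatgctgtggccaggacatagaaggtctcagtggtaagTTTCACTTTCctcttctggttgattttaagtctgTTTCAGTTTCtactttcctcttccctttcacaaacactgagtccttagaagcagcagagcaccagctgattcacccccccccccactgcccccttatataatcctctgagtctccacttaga
This motif was found in 8 of 16 genes of the interferon-stimulated list with a window and in 746 of all 32851 windows (2.27%).

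**Figure D3:**
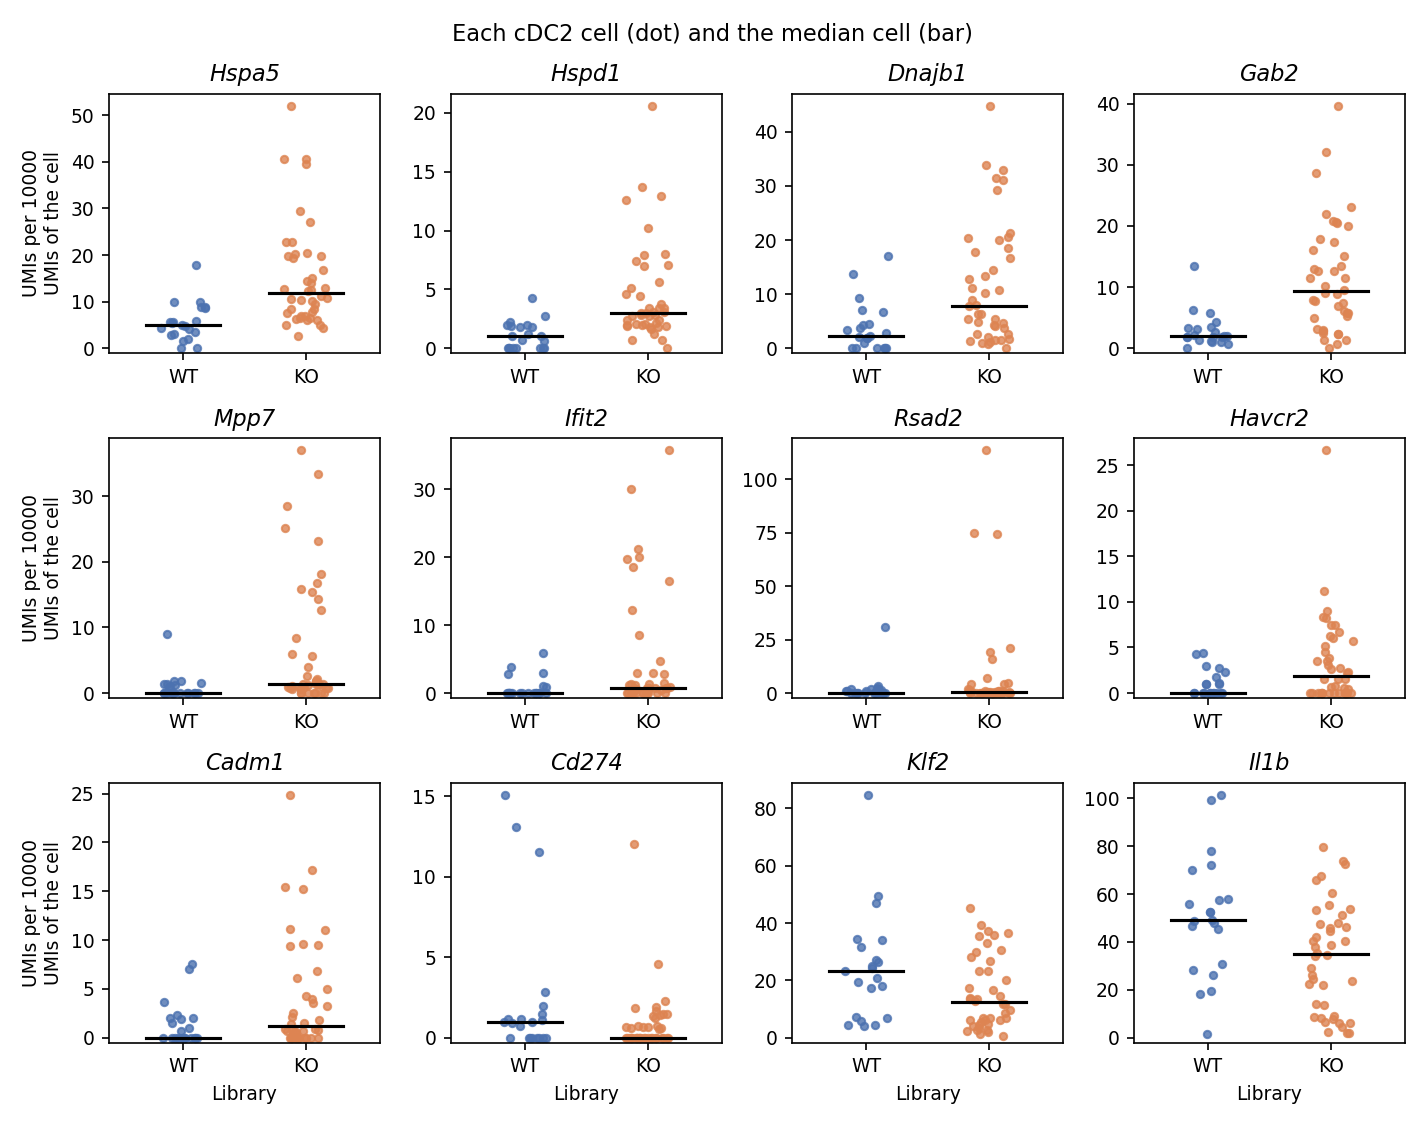
UMIs of 12 genes per 10000 UMIs of the cell, in each of 21 wild-type (WT) and 42 knockout (KO) cDC2 (dots, spread sideways for sight) with the median cell (bars). The median knockout cell is higher for Hspa5, Hspd1, Dnajb1 and Gab2. Ifit2, Mpp7 and Cadm1 are high in a subset of knockout cells, and Rsad2 in a subset of knockout cells and 1 wild-type cell. Cd274 is high in 3 wild-type cells and 1 knockout cell.

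Outside the lists, genes were named as the 10 highest and 10 lowest ratios with a mean of at least 100 CPM. Their ratios are extremes by choice and describe the libraries. Gab2, an adaptor that links cytokine and Fc receptors to PI3-kinase, was the most evenly spread of the 10 highest. It stood at 281 CPM (54 UMIs) in the wild type and 1164 CPM (675 UMIs) in the knockout (log2 ratio 2.03, 1.65 to 2.48). A Gab2 UMI was present in 20 of 21 and 41 of 42 cells, the median cell had 2 and 11, and 25 of 42 knockout cells had at least 10, above the wild-type maximum of 9. The log2 ratio was 0.18 (-0.09 to 0.46) in cDC1, 0.18 (-0.33 to 0.72) in migratory dendritic cells, 0.48 (0.36 to 0.60) in monocytes and 0.48 over all other kept barcodes. Gab2 lies at chr7:97081586-97308946 on the forward strand of GRCm38, with no overlapping gene in GENCODE M21. In cells gated after thinning (3 wild-type and 11 knockout cells) the cDC2 log2 ratio was 0.08; it was 1.51 to 2.70 under the other alternatives. Whether the difference between gates exceeds that between animals could not be tested.

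Mpp7, a scaffold protein of cell junctions, had the highest ratio, at 98.8 and 690 CPM (log2 ratio 2.73, 2.14 to 3.55). In the wild type 12 of 21 cells had no Mpp7 UMI, while 13 of 42 knockout cells had at least 11, above the wild-type maximum of 10. Its log2 ratio was 0.45 in cDC1, 0.92 in monocytes and 1.596 in migratory dendritic cells. The wild-type cDC2 value rested on 19 UMIs, 52.6% of them in 1 cell. It was low beside wild-type cDC1 (567 CPM), monocytes (414 CPM) and migratory dendritic cells (312 CPM). The knockout cDC2 level was not above these gates in the knockout, at 774, 786 and 957 CPM. Ptk2b, the focal adhesion kinase PYK2, stood at 78.0 and 392 CPM (2.24, 1.58 to 3.19) in cDC2, and at 333 and 166 CPM (-0.99, -1.26 to -0.74) in cDC1. Gfod1 (2.39), Birc6 (2.01), an inhibitor of apoptosis, and 1600020E01Rik (1.73) had low wild-type levels of 36.4 to 57.2 CPM. Rrad, a small GTPase, stood at 31.2 and 171 CPM, with 38.4% of its knockout UMIs in 1 cell. Ifit2 and Hspd1 were also among the 10.

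Mki67, a gene of dividing cells, stood at 36.4 CPM (7 UMIs) and 190 CPM (110 UMIs). It was the 1 called gene of 5 with enough UMIs in the proliferation list, whose median was -0.04. Both Mki67 and Top2a reached at least 5 UMIs in 2 knockout cells and in no wild-type cell, and 0 of 21 cells allows a share of up to 14.3%. Neat1, a nuclear long RNA, stood at 1601 and 3304 CPM (1.04, 0.87 to 1.22) and ranged from 2 to 53 UMIs per cell in the wild type and 3 to 131 in the knockout. It was called higher together with Rsrp1, among 9 genes of the nuclear RNA list, whose median was 0.30. Malat1 stood at 10030 and 11290 CPM (0.17).

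**Figure D4:**
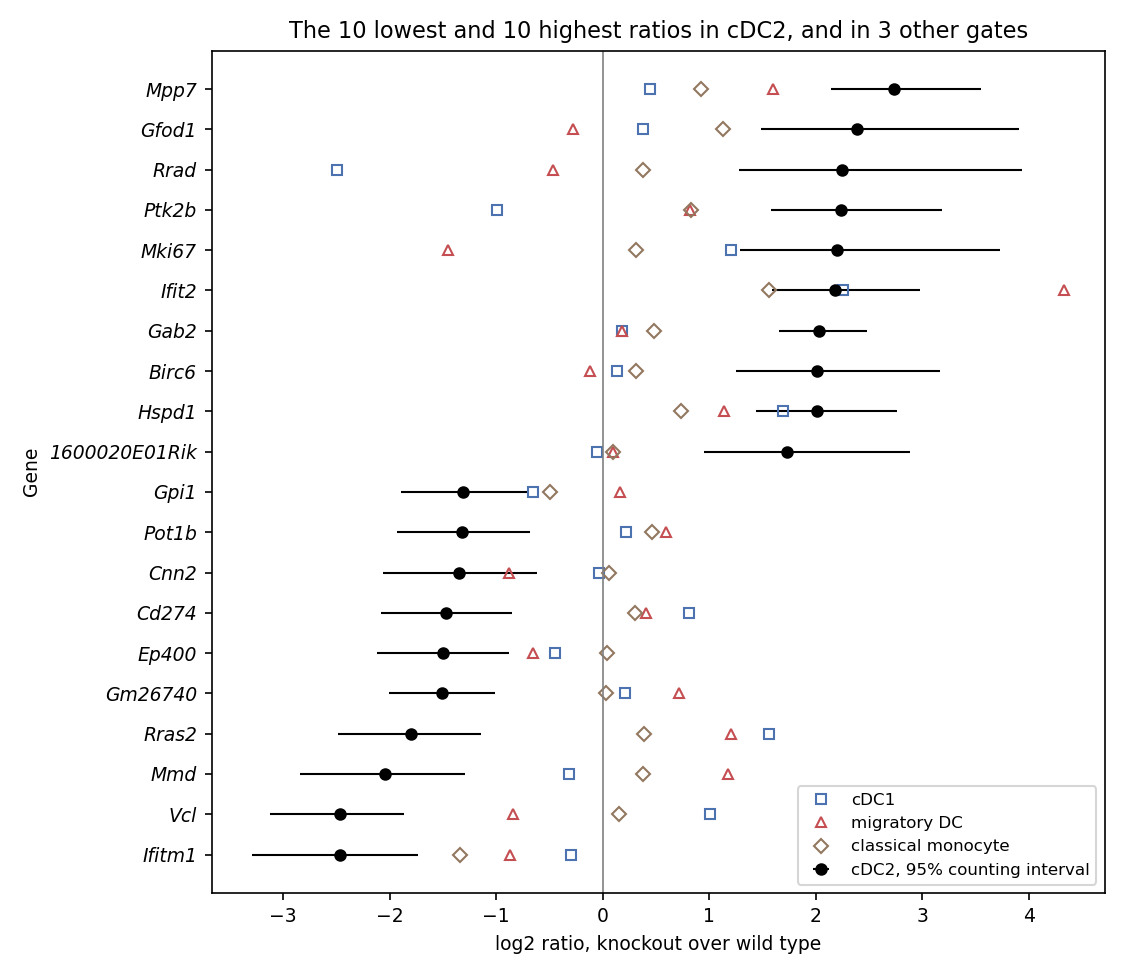
Log2 ratio of knockout over wild type for the 10 lowest and 10 highest genes in cDC2 (black, with 95% counting intervals) and for the same genes in cDC1, migratory dendritic cells and classical monocytes (open symbols). Gab2 and Birc6 lie at or above 2.0 in cDC2 and below 0.5 in the other gates, whereas Ifit2 lies above 1.5 in all 4.

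Among the 10 lowest genes, several wild-type values rested on 1 cell. Vcl, vinculin, stood at 338 and 60.4 CPM (log2 ratio -2.47), with 63.1% of the wild-type UMIs in 1 cell; Ifitm1, at 224 and 39.7 CPM (-2.47), had 53.5% in 1 cell, and Rras2, at 224 and 63.8 CPM (-1.80), had 55.8%. Gpi1, the glycolytic enzyme glucose-6-phosphate isomerase, was the most evenly spread, with its richest wild-type cell holding 13.04%. It stood at 239 and 96.6 CPM (-1.31, -1.90 to -0.71). Ep400 (-1.50), a chromatin remodeller, Cnn2 (-1.35), an actin-binding calponin, Pot1b (-1.32), a telomere protein, Mmd (-2.05), Gm26740 (-1.51) and Cd274 made up the rest. Mmd, Vcl, Rras2, Gm26740 and Cd274 each overlap another gene, as do Rrad, Birc6 and 1600020E01Rik above.

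Genes of other cell types were also counted in cDC2 and differed between the libraries. Cadm1, an adhesion molecule of the type 1 lineage, stood at 140 CPM in wild-type and 424 CPM in knockout cDC2 (log2 ratio 1.55, 1.02 to 2.23) and at 1409 and 1373 CPM in cDC1. At least 10 raw Cadm1 UMIs were found in 10 of 42 knockout members, which were deeper, and in no wild-type member. After thinning, 6 of 20 wild-type and 22 of 42 knockout members held a Cadm1 UMI. The 8 genes of the cDC1 list summed to 624 and 845 CPM, with Xcr1 and Clec9a at 0 by the rule and Gcsam at 0 in the data. The endothelial list summed to 140 and 378 CPM. Per cell it ranged from 0 to 5 UMIs in the wild type and from 0 to 106 in the knockout, where 1 cell of 21272 UMIs held 106. The hepatocyte list summed to 88.4 and 307 CPM, with 0 to 4 and 1 to 9 UMIs per cell, and to 207 and 422 CPM in B cells. Haemoglobin genes summed to 561 and 174 CPM, and to 2059 and 170 CPM in B cells. Neutrophil genes summed to 1076 and 752 CPM and Kupffer cell genes to 759 and 633 CPM. The part of these transcripts in the differences above was not tested. Without 3 cells that stand apart, rich in endothelial genes, in Lyz2 or in Igkc, 166 genes were called higher and 43 lower, and the heat shock and interferon-stimulated medians were 0.68 and 0.33.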

How the data were processed

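The authors deposited raw UMI counts per gene and barcode for each library. Per the file headers Cell Ranger 7.0.1 made them, whereas the submitters' processing notes name Cell Ranger 3.1.0, Seurat and mm10; which run made the files is not given in the sources used here. Libraries were 3′ v3 droplets per the labels' protocols. Depth was 82499307 and 118226367 UMIs.

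Barcodes were gated on raw counts as described, with no doublet removal. Scrublet's automatic threshold marked 1 wild-type (0.008795%) and 727 knockout barcodes (5.714%) and so did not work in the wild type; as an alternative the 1034 and 1295 highest scores were removed. UMIs were summed over gated cells and scaled to 1000000 (CPM). Ratios are log2 of knockout over wild type, after adding 1 count to both sums. Intervals at 95% are exact Poisson (CPM), Clopper-Pearson (shares) and exact conditional (ratios). A count of 0 is given with the share that 3 counts allow. B cells, the background for shares, had at least 5 UMIs of Cd79a, Cd79b and Ms4a1 together. They had none of Cd3d, Cd3e or Cd3g and at most 10 of C1qa, C1qb and C1qc together. Thinning to 3000 UMIs left out 128 wild-type and 23 knockout B cells.

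The members, gene lists and alternatives were chosen with earlier results of these data known. Genes named outside the lists were the 10 highest and 10 lowest ratios with a mean of at least 100 CPM, not in the rule, not mitochondrial, ribosomal, haemoglobin, immunoglobulin or other-cell list genes, and at or above the level of all other barcodes in their higher library; plus the 15 genes highest in cDC2 over the other 3 gates. Clec7a, Mx1 and Aldoa were not found under those symbols. Of 32285 gene identifiers, 32158 (99.6%) occur in GENCODE M21, used for positions and overlaps. Promoters are from RefSeq. Python 3.11.15, numpy 2.4.6, scipy 1.17.1 and scanpy 1.11.5 were used. The interval step was tested on simulated counts.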

Additional observations from a re-analysis of the deposited data

Results flagged for a closer look

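In 4 of the 20 named genes the difference between the libraries went past 2-fold one way in cDC2 and past 2-fold the other way in another gate with at least 50 UMIs. The differences between gates were not tested, since there was 1 library per genotype. Rras2, a small GTPase, was lower in knockout cDC2 (log2 ratio -1.80) and higher in knockout cDC1 (1.56) and migratory dendritic cells (1.20). Vcl was lower in cDC2 (-2.47) and higher in cDC1 (1.01), where it stood at 49.4 and 100.1 CPM. Mmd was lower in cDC2 (-2.05) and higher in migratory dendritic cells (1.18). Rrad was higher in cDC2 (2.25) and lower in cDC1 (-2.50), at 261 and 45.5 CPM there. For Rras2 and Vcl, 1 wild-type cDC2 held 55.8% and 63.1% of the wild-type UMIs, and for Rrad 1 knockout cDC2 held 38.4% of the knockout UMIs.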

How the results depend on the processing

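No paired analysis was possible because each genotype has 1 library. Of 616 values over the alternatives for 44 named genes, 489 stayed within the counting interval of the reported ratio, 101 moved outside it and 26 took the other sign although that interval excluded 0; except where a value shows it below, the cause was not tested. Hspa5, Hspd1, Mpp7, Gab2, Neat1, Cd274, Gpr183 and Klf2 kept their direction in all of them. The alternatives without a C1q limit and without 3 cells that stand apart (rich in endothelial genes, Igkc or Lyz2) were chosen after seeing the data.

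The share of kept barcodes was 0.534% in the knockout with Cd209a at 1 UMI or more, and 0.0968% and 0.212% in wild type and knockout with 4 or more. With C1q at most 2 UMIs only 5 wild-type cells and 1 knockout cell remained: the shares were 0.0440% and 0.00786% (log2 ratio -2.48), the medians were -1.58 for MHC class II, 0.16 for heat shock and -0.49 for immediate early genes, 16 genes were called higher, and the ratio reversed for Cnn2 (1.53), Gpi1 (0.53), Tap1 (1.11), Havcr2 (-1.06), Rsad2 (-0.21), Dnajb1 (-0.21), Uty (-0.70), Clec10a (2.11), Mgl2 (1.11) and Cd86 (-1.54). Thinning barcodes before gating left 3 and 11 cells: shares of 0.0389% and 0.109%, a heat shock median of -0.014, 7 genes called higher and 11 lower, and reversed ratios for Ep400 (0.13), Gpi1 (0.71), Rrad (-0.067), Ifit2 (-0.55), Birc6 (-0.29), Tap1 (0.13), Ifit3 (-0.29), Hsph1 (-0.59), Dnajb1 (-0.37), Bag3 (-2.46), Uty (-0.29), Clec10a (0.30) and Cd86 (-0.29).

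Leaving out the 5 richest cells of each gene removes a larger part of 21 cells than of 42. It gave medians of 0.69 for lectins and pattern receptors, 0.33 for chemokines and 0.16 for trafficking receptors, 595 genes called higher and 16 lower, and reversed Clec10a (0.54), Mgl2 (0.16) and Ccl4 (0.17). Thinning cells before summing gave medians of 0.66 for costimulation and 2.02 for interferon-stimulated genes, and 47 genes called higher and 7 lower, as fewer genes had enough UMIs. Genes called numbered 435 higher and 193 lower at a minimum of 20 UMIs, and 34 and 3 at 200. With no C1q limit the proliferation median was 1.17.

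The 21 wild-type cells limit the whole comparison: 192362 UMIs leave most genes of the lists with few counts, and 1 cell can carry a ratio. A share of 0 of 21 cells allows up to 14.3%.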
